A study of Mus musculus with 8 samples.

Results

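The genes described here are 46 that copy DNA in S phase or make its nucleotides, listed by symbol and looked up in the deposited gene tables, where all 46 were found among 24411 genes. The study sorted 4 populations of common myeloid progenitors, which precede the granulocyte, monocyte, erythroid and megakaryocyte lineages, from wild-type C57BL/6 mouse marrow, and sequenced RNA of 2 libraries per population. Every population was KIT+ and CD16/32-, and none carried a transgene or a treatment per the labels. CD34bright cells were in addition CD41+ CD9+. CD48dim and CD48bright cells shared a CD34dim CD41+ CD9+ gate and differed by CD48. CD41/CD9-negative cells were CD34dim, CD41- and CD9-. The members fall into 6 roles: 5 genes of origin licensing, 12 of the helicase, 11 of the polymerases, primase and single-strand binding, 8 of the clamp, its loader and strand joining, 5 of nucleotide supply, and 5 of chromatin assembly and cyclin E.

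Before S phase, the origin recognition complex, Cdc6 and Cdt1 load the MCM2-7 ring onto DNA, and Gmnn (geminin) holds Cdt1 back so that an origin fires once. Cdc45 and the GINS complex then join the ring to form the active helicase, primase starts new strands, the polymerases extend them with the sliding clamp PCNA, and ribonucleotide reductase and its partner enzymes supply the deoxynucleotides. Much of this set is transcribed together as cells pass from G1 into S phase, through E2F transcription factors, so in blood progenitors its RNA is commonly read as a sign of cycling.

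All 4 populations held RNA of all 46 genes, and CD48dim had the lowest mean for 38 of them, against 33.1% of all 13177 genes tested. The 6 genes that lay lowest there against every other population were Rrm2 of nucleotide supply, Gins2 of the helicase, Rpa3 of single-strand binding, Rfc4 of the clamp loader and Cdc6 and Gmnn of origin licensing, with a CD48dim mean of 0.238 to 0.466 of any other. In edgeR, with all 8 libraries, low counts filtered and no replicate block, only Rrm2 passed the adjusted test, between the CD41/CD9-negative and CD48dim populations. DESeq2, and edgeR with no filter, called more members without a block, as given below. With the replicate number as a block in the filtered edgeR fit, 9 members passed in at least 1 comparison with CD48dim. They were Rrm2, Gins2, Mcm10, Mcm4, Pola1, Rpa3, Pcna, Tyms and Cdc6. The share of all genes passing in at least 1 comparison was not counted. Taken singly, the comparison with CD48bright called 4.35% of members and 1.35% of all genes. These shares were 13% and 5.18% for CD34bright, then 10.9% and 7.32% for the CD41/CD9-negative population. Rfc2 and Chaf1b lay the other way, with both CD48dim libraries above the other 6. Between the other 3 populations no member passed a test.

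The promoters of several members are shown first because they carry the letters through which the set is known to be switched on. Of the 46 members, 37 had a promoter in the RefSeq table (build GRCm38.p6, 250 bases before to 50 after the start of transcription). E2F-type letters were searched as TTTCCCGC, TTTCGCGC, TTTGCCGC and TTTGGCGC on both strands, where matches may overlap one another. They were found for 14 of the 37 members, or 37.8%, against 4.6% of 10003 tested genes and 2.6% of all 27025 genes in the table. In the sequences below, written 5′ to 3′ on the gene's strand, capitals mark these letters for Cdc6, Mcm5, Mcm6 and Pola1, and mark CCAAT, the box bound by the factor NF-Y, for Rrm2, which has no E2F-type match in this window.
Cdc6, chr11:98907901-98908200, plus strand: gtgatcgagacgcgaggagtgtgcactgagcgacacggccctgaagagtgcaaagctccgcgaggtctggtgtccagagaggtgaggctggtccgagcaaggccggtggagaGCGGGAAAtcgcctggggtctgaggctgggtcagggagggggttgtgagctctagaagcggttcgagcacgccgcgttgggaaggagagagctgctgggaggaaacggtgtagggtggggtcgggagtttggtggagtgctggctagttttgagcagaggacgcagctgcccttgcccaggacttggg
Mcm5, chr8:75109259-75109558, plus strand: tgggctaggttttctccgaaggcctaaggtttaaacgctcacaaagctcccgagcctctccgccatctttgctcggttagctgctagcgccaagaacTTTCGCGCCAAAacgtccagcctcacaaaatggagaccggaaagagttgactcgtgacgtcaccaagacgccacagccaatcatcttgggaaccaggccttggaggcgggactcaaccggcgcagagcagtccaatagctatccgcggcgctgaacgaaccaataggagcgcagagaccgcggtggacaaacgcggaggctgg
Mcm6, chr1:128359656-128359955, minus strand: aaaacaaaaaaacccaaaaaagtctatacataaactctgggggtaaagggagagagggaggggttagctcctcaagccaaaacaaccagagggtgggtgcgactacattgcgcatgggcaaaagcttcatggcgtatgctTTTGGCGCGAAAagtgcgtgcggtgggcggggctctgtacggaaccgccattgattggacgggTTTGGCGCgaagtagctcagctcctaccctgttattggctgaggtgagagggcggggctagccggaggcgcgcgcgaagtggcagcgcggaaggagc
Pola1, chrX:93632106-93632405, minus strand: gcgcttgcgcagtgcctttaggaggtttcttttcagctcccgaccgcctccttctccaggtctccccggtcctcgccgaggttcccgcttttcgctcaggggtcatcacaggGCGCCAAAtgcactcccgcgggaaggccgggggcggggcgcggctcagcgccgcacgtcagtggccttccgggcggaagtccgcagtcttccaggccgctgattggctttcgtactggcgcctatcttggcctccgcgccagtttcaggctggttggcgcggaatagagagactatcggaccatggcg
Rrm2, chr12:24708004-24708303, plus strand: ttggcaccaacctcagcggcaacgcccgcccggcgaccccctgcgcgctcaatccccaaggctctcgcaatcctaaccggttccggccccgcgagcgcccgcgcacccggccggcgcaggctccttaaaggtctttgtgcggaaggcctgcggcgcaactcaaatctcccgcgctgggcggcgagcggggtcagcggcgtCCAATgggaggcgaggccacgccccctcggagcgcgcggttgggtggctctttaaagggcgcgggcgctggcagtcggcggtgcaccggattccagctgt
In Mcm5 the capitals are 2 overlapping matches, which begin 153 and 149 bases before the start. Mcm6 has 3 matches, of which 2 overlap in the same way at 110 and 106 bases before the start and the other begins 47 bases before it. Cdc6 and Pola1 each have 1 match, both beginning 138 bases before the start. By role, E2F-type letters were in 5 of 8 helicase promoters, 3 of 4 licensing promoters, 3 of 9 of the polymerase group, 2 of 7 of the clamp group, 1 of 4 of the chromatin group and 0 of 5 nucleotide supply promoters. CCAAT on either strand was in 23 of 37 members, or 62.2%, against 42.8% of the tested genes, and in all 8 helicase promoters found. The letters did not separate the members by their level in CD48dim: both CD48dim libraries lay below the other 6 for 6 of 14 members with E2F-type letters and for 10 of 23 with a promoter but without them. A match of letters is a description, and no binding was measured.

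Levels between libraries are given as CPM, the gene's expected count scaled to the library total after TMM, and levels between genes as the deposited TPM, which is scaled for transcript length. Library totals ran from 7237587 counts in CD48dim replicate 2 to 20632005 in CD34bright replicate 1, and the members' counts from 31 to 10793, with none at 0. The sorted markers followed the gates for Itga2b (CD41), at 2.18 and 2.83 CPM in the CD41/CD9-negative libraries and 64.3 to 155 in the others, and for Cd48, at 16.9 and 35.8 in CD48dim and 157 to 246 in the others. CD48dim replicate 2 stood apart, with the nuclear RNA Malat1 at 38947 CPM against 5004 to 14867 in the other 7 libraries, and 2.29% of counts in 80 ribosomal protein genes against 4.93% to 9.15%. All 10 mature neutrophil markers were detected in every library, and their sum was 4175 and 625 CPM in CD48dim, 702 and 49.9 in CD41/CD9-negative and 115 to 166 in the other 4. The 7 haemoglobin and red cell genes summed to 261 and 40.3 CPM in CD48dim and 6.6 to 34.5 elsewhere. The part of these values in the results that follow was not tested. In bulk RNA, fewer cells in S phase and less RNA per cell cannot be told apart. The labels do not say whether paired libraries represent different mice or different sorts, and p-values therefore cover only the spread between libraries, which may be technical.

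In a test for any difference among the 4 populations (edgeR's quasi-likelihood F-test, Benjamini-Hochberg over all tested genes), 0 of 46 members passed an adjusted p of 0.05, against 2.44% of all genes. At an unadjusted p under 0.05 there were 13 members, which is 28.3% against 16.8% of all genes. DESeq2 called 7 members, Cdc6, Gmnn, Gins2, Pola1, Rpa3, Rrm2 and Dut, where it called 12.9% of all genes, and limma-voom called 0. With the replicate number of the labels as a block, Gins2 (adjusted p = 0.0246) and Rrm2 (0.0198) were called in the edgeR test, where 5.8% of all genes were. Summed over the 46 genes, the level was 6199 and 5076 CPM in CD34bright, 6134 and 5242 in CD48bright, 5269 and 4788 in CD41/CD9-negative, against 4203 and 2912 in CD48dim. The CD48dim libraries were the lowest of the 8, and the other 3 populations overlapped. Both CD48dim libraries lay below the other 6 for 22 members, or 47.8%, against 11.6% of all genes, and above them for 2 members, against 11.6%. That count was 28 without CD48dim replicate 2, where 24.5% of all genes had this order, and 35 without CD48dim replicate 1, where 34.9% did. On the TPM scale it was 17 members, against 7.95% of the tested genes.

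**Figure D1:**
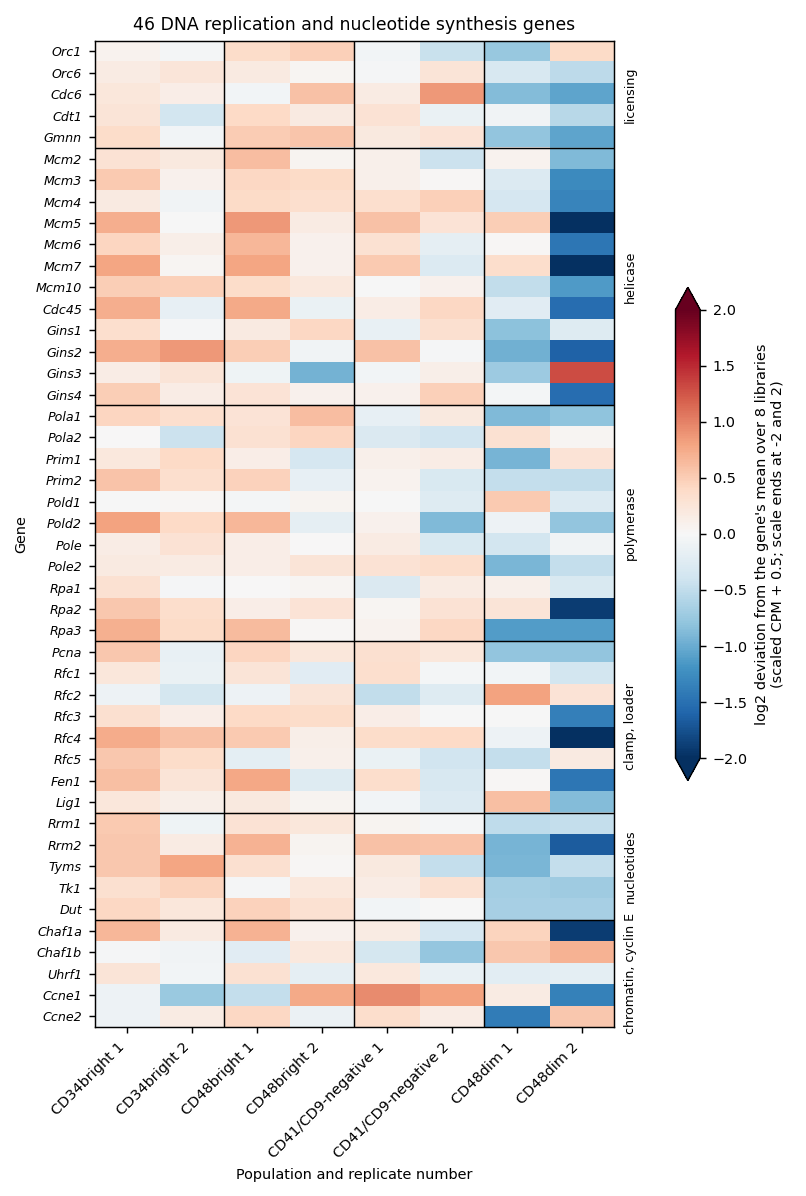
Heat map of the 46 genes (rows, by role) in the 8 libraries (columns, by population and replicate number), coloured by the log2 deviation of scaled CPM + 0.5 from the gene's mean over the 8 libraries. The 2 CD48dim columns are mostly blue, with median deviations of -0.30 in replicate 1 and -0.79 in replicate 2, against 0.01 to 0.35 in the other 6 libraries.

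Of the origin licensing genes, 3 of 5 (Orc6, Cdc6 and Gmnn) had both CD48dim libraries below the other 6. Gmnn (mouse GRCm38, chr13:24751845-24761937), the inhibitor of Cdt1, was at 49.0 and 36.6 CPM in CD34bright, 54.4 and 56.0 in CD48bright, 43.4 and 45.8 in CD41/CD9-negative, against 21.9 and 18.001 in CD48dim. CD34bright and CD41/CD9-negative overlapped, and CD48bright lay above both. CD48dim lay apart below the range of 36.6 to 56.0 of these populations. The log2 difference from CD48dim was 1.47 ± 0.36 (SE) in CD48bright, where edgeR's adjusted p was 0.142. Cdc6, the loader of the MCM ring, was at 72.9 and 68.6 CPM in CD34bright, 60.0 and 93.9 in CD48bright, 69.6 and 114 in CD41/CD9-negative, against 34.1 and 29.7 in CD48dim. Its log2 difference from CD48dim was 1.53 ± 0.38 in CD41/CD9-negative, with an edgeR adjusted p of 0.0633, or 0.0332 with the replicate block. Cdt1, which brings the ring to the origin, overlapped between populations, at 51.4 and 72.1 CPM in CD48dim and 59.0 to 100.3 elsewhere. Orc1, the ATPase subunit of the origin recognition complex, held the lowest and one of the higher values within CD48dim itself, 15.7 and 35.3 CPM, around 19.6 to 37.8 in the others.

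Of the 12 helicase genes, 7 had both CD48dim libraries below the other 6 (Mcm3, Mcm4, Mcm10, Cdc45, Gins1, Gins2 and Gins4). Gins2 (chr8:120581266-120589075), a subunit of the 4-part GINS complex, was at 105 and 116 CPM in CD34bright, 89.2 and 60.1 in CD48bright, 94.7 and 62.5 in CD41/CD9-negative, against 32.4 and 20.2 in CD48dim. Every other library was at least 60.1, so the populations did not overlap with CD48dim, and CD34bright was the highest. Its log2 difference from CD48dim was 2.07 ± 0.40 in CD34bright, with an edgeR adjusted p of 0.0575, or 0.0162 with the replicate block. In CD41/CD9-negative it was 1.58 ± 0.40, with an edgeR adjusted p of 0.0633, or 0.0204 with the block. Gins2 is uncertain as a gene, because 67.3% of its exonic bases in the annotation are shared with Gse1, which had a mean of 4297 counts against 1076, and the libraries carry no strand. Mcm10, which helps to start the helicase, was at 83.0 and 82.4 CPM in CD34bright, 76.0 and 68.3 in CD48bright, 58.7 and 62.6 in CD41/CD9-negative, against 41.8 and 26.5 in CD48dim. Its log2 difference from CD48dim was 1.27 ± 0.34 in CD34bright, with an edgeR adjusted p of 0.112, or 0.0483 with the replicate block. The remaining GINS genes did not move as one, since Gins3 had its highest and one of its lowest values in CD48dim, 50.6 and 11.9 CPM, against 10.1 to 24.1 elsewhere.

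The 6 subunits of the MCM2-7 ring, which in the cell act in equal numbers, all had their lowest mean in CD48dim. The log2 differences were 0.57 to 1.01 against CD34bright, 0.69 to 1.10 against CD48bright and 0.19 to 1.15 against CD41/CD9-negative. These low means came mostly from CD48dim replicate 2. The subunits' median log2 deviation from the gene's mean over the 8 libraries was 0.05 in replicate 1 and -1.38 in replicate 2. Both CD48dim libraries lay below the other 6 only for Mcm3 and Mcm4. Mcm2 and Mcm6 were at 175 and 362 CPM in CD48dim replicate 1, inside the others' ranges of 124 to 255 and 315 to 561. Mcm4 was at 276 and 232 CPM in CD34bright, 318 and 308 in CD48bright, 307 and 339 in CD41/CD9-negative, against 193 and 97.6 in CD48dim. Its log2 difference was 1.15 ± 0.37 against CD41/CD9-negative, with an edgeR adjusted p of 0.128, or 0.0495 with the replicate block. Mcm5 was at 175 and 14.2 CPM in the 2 CD48dim libraries, 12.4-fold apart, and at 124 to 228 in the others, so that one CD48dim library lay inside the range of the other populations and one far below it. Mcm7 was at 193 and 30.4 CPM there, 6.35-fold apart, against 124 to 259.8. Their differences from CD48dim came with the wide standard errors of 0.84 and 0.71. Per length, Mcm6 had the highest TPM of the ring in all 8 libraries and Mcm5 or Mcm2 the lowest. The highest over the lowest was 2.49 to 3.73 in 7 libraries and 10.98 in CD48dim replicate 2. For 5 of the 6 subunits, all but Mcm4, the CPM of replicate 2 was below that of replicate 1 in all 4 populations, against 16.6% of all genes, and on the TPM scale this held for 3 of 6. Over all 46 members it was 14 in CPM and 6 in TPM. The reverse order in all 4 populations was seen for 0 members in CPM, against 15.2% of all genes. In TPM that reverse order was seen for members including Orc6, Cdc6, Pola1, Pole2, Rfc2, Tk1 and Dut, so the order of replicates depended on the scale. The share of all genes with either order in TPM was not counted.

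**Figure D2:**
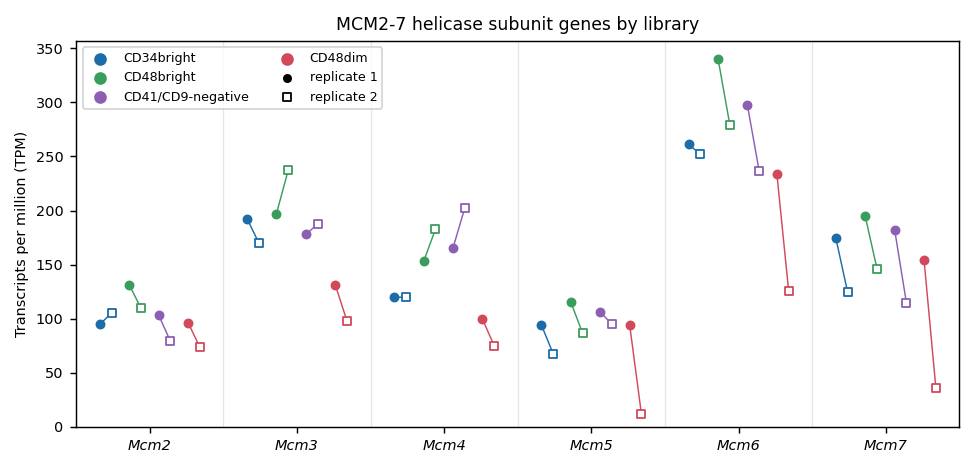
TPM of the 6 MCM2-7 subunit genes by library, with replicate 1 as filled circles, replicate 2 as open squares and a line joining the 2 libraries of a population. The red squares of CD48dim replicate 2 are the lowest point of each gene, down to 11.4 TPM for Mcm5, while CD48dim replicate 1 lies within the range of the other populations for Mcm2, Mcm5 and Mcm7.

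Of the 11 genes of the polymerases, primase and single-strand binding, 4 (Pola1, Prim2, Pole2 and Rpa3) had both CD48dim libraries below the other 6, and the rest overlapped. Pola1, the catalytic subunit of the polymerase that works with primase, was at 212 and 199 CPM in CD34bright, 190.1 and 241 in CD48bright, 141 and 179.8 in CD41/CD9-negative, against 84.8 and 89.6 in CD48dim. The CD48dim libraries were close to each other and below every other library. Its log2 difference from CD48dim was 1.31 ± 0.31 in CD48bright, with an edgeR adjusted p of 0.128, or 0.049 with the replicate block. The difference in CD34bright was 1.24 ± 0.31, with an edgeR adjusted p of 0.0921, or 0.0311 with the block. Pola2, the other polymerase subunit of the same complex, overlapped between populations, at 88.5 and 73.7 CPM in CD48dim and 53.3 to 97.3 elsewhere. Rpa3, the smallest subunit of the single-strand binding protein RPA, was at 50.6 and 40.4 CPM in CD34bright, 48.1 and 31.4 in CD48bright and 32.5 and 41.3 in CD41/CD9-negative, while both CD48dim libraries were at 13.9. Its log2 difference from CD48dim was 1.71 ± 0.41 in CD34bright, with an edgeR adjusted p of 0.0865, or 0.0404 with the replicate block. Rpa1, the large DNA-binding subunit, overlapped between populations, at 121 and 90.4 CPM in CD48dim and 91.9 to 139 elsewhere. Rpa2 was at 89.9 and 19.8 CPM there, 4.54-fold apart, against 76.6 to 109. Pole2, an accessory subunit of the leading strand polymerase, was at 54.6 and 53.8 CPM in CD34bright, 52.8 and 57.6 in CD48bright, 59.2 and 61.8 in CD41/CD9-negative, against 25.3 and 34.5 in CD48dim. The log2 difference was 1.02 ± 0.34 in CD41/CD9-negative, where edgeR's adjusted p was 0.141. Pole, its catalytic partner, differed from CD48dim by log2 values of 0.16 to 0.44.

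Pcna, the sliding clamp, had the highest TPM of the 46 members, with a mean of 639 over the 8 libraries that exceeded 98.6% of tested genes, while Ccne1 had the lowest at 14.3. It was at 496 and 308 CPM in CD34bright, 459 and 399 in CD48bright and 426 and 398 in CD41/CD9-negative, while both CD48dim libraries were at 197. The 2 CD48dim values were nearly the same and lay below all others. Its log2 difference from CD48dim was 1.06 ± 0.33 in CD41/CD9-negative, with an edgeR adjusted p of 0.122, or 0.0445 with the replicate block. Processed copies of Pcna are annotated in the genome and could share its reads. Rfc2 (chr5:134582690-134598328), a subunit of the loader that opens the clamp, lay the other way, at 144 and 121 CPM in CD34bright, 143 and 184 in CD48bright, 109 and 128 in CD41/CD9-negative, against 269 and 186 in CD48dim. The lower CD48dim library was only just above the highest of the others. The log2 difference of CD41/CD9-negative from CD48dim was -0.93 ± 0.33, where edgeR's adjusted p was 0.157. Rfc3 and Rfc4, of the same loader, had both CD48dim libraries below the other 6. For Rfc3 this was only just so, at 26.43 and 10.03 CPM against 26.48 to 35.27. Rfc4 was at 33.7 and 5.36 CPM, 6.29-fold apart, against 39.1 to 60.4. Of the exonic bases of Rfc4, 12.7% are shared with Eif4a2, which had a mean of 11950 counts against 631.5, so its level is uncertain. Rfc2 had the highest TPM of the 5 loader subunits in all 8 libraries, and the highest over the lowest was 2.84 to 4.65 in the 6 libraries outside CD48dim and 7.76 and 26.5 inside it. Lig1, the ligase that seals the fragments of the lagging strand, was at 207 and 74.2 CPM in CD48dim, above and below the whole range of 112 to 159.8 in the others.

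All 5 genes of nucleotide supply had their lowest mean in CD48dim, and for 4 of them (all but Tyms) both CD48dim libraries lay below the other 6. Rrm2 (mouse GRCm38, chr12:24708254-24714146), the radical-bearing subunit of ribonucleotide reductase, was at 164 and 127 CPM in CD34bright, 183 and 116 in CD48bright, 169 and 166 in CD41/CD9-negative, against 58.5 and 35.0 in CD48dim. The other 6 libraries overlapped between 116 and 183, and both CD48dim libraries were far below that range. Rrm2 was higher in CD41/CD9-negative than in CD48dim by a log2 value of 1.84 ± 0.38, with an edgeR adjusted p of 0.0322, and the block gave 0.00607. It was the 1 member called in that comparison, where 4.02% of all genes were called. The call was lost in a fit of these 2 populations alone and when either CD34bright library or either CD41/CD9-negative library was left out, with log2 differences of 1.85 to 1.87. Against CD34bright and CD48bright its log2 differences were 1.63 ± 0.38 and 1.67 ± 0.38, with edgeR adjusted p of 0.0822 and 0.117, or 0.0202 and 0.034 with the block. Rrm1, the large subunit of the same enzyme, was at 158 and 161 CPM in CD48dim and 212 to 325 elsewhere, a smaller log2 difference of 0.51 to 0.75. Dut, which clears dUTP and so keeps uracil out of DNA, was at 232 and 205 CPM in CD34bright, 241 and 215 in CD48bright, 168 and 174 in CD41/CD9-negative, against 110.0 and 109.7 in CD48dim. CD41/CD9-negative lay between CD48dim and the other pair of populations, without overlap. The log2 difference from CD48dim was 1.05 ± 0.29 in CD48bright, where edgeR's adjusted p was 0.168. Tk1, the thymidine salvage kinase, was at 42.3 and 41.4 CPM in CD48dim and 66.8 to 92.7 elsewhere. Tyms, which makes thymidylate, was at 135 and 161 CPM in CD34bright, 116 and 94.8 in CD48bright, 106 and 66.8 in CD41/CD9-negative, against 49.0 and 66.9 in CD48dim. Its log2 difference of CD34bright from CD48dim was 1.35 ± 0.36, with an edgeR adjusted p of 0.107, or 0.0493 with the block. As for Pcna, a processed copy of Tyms is annotated in the genome and could share its reads.

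**Figure D3:**
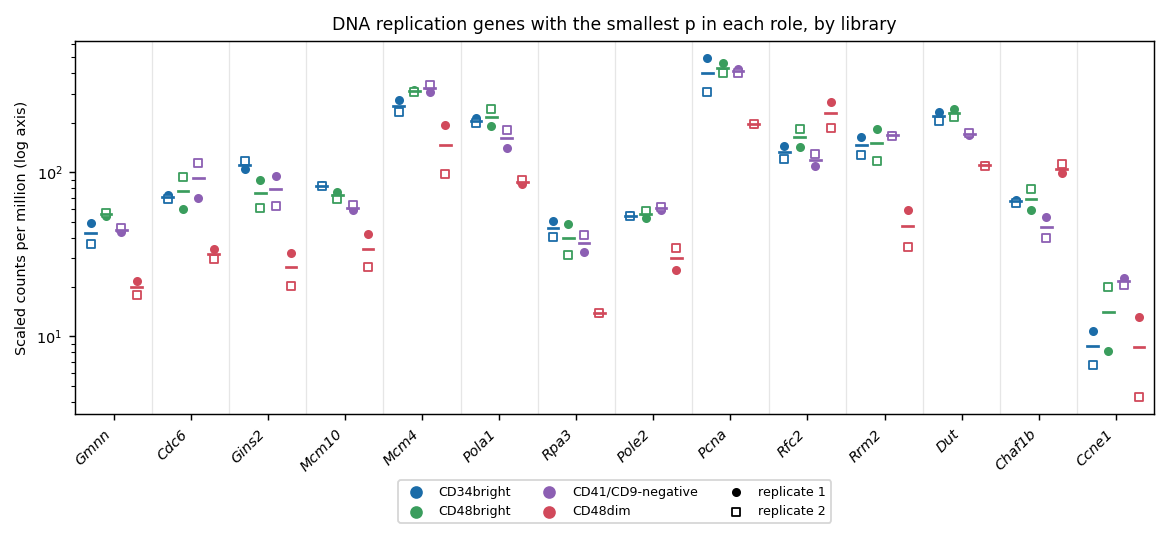
Scaled CPM (log axis) of the 14 members with the smallest p in the test of the 4 populations in each role, with replicate 1 as filled circles, replicate 2 as open squares and a bar at the mean of 2 libraries. CD48dim (red) lies below the other libraries for 11 of the 14, above them for Rfc2 and Chaf1b, and among them for Ccne1.

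Of the chromatin assembly and cyclin E genes, 1 of 5 (Uhrf1) had both CD48dim libraries below the other 6, and 4 of 5 had their lowest mean in CD48dim. Chaf1b (chr16:93883900-93906115), the middle subunit of the chromatin assembly factor that lays histones on new DNA, was at 67.3 and 65.2 CPM in CD34bright, 58.5 and 79.4 in CD48bright, 53.2 and 39.6 in CD41/CD9-negative, against 99.0 and 111 in CD48dim. CD48dim was above all other libraries and CD41/CD9-negative below them. The log2 difference of CD41/CD9-negative from CD48dim was -1.18 ± 0.33, where edgeR's adjusted p was 0.0926. Chaf1a, its partner in the same factor, was at 92.4 and 17.7 CPM in CD48dim, 5.21-fold apart, against 53.4 to 110.3. Of its exonic bases, 52.5% are shared with Ubxn6, so its level is uncertain. Ccne1, cyclin E1, was low throughout, at 10.7 and 6.75 CPM in CD34bright, 8.17 and 20.02 in CD48bright, 22.7 and 20.7 in CD41/CD9-negative, against 13.1 and 4.26 in CD48dim. Only CD41/CD9-negative was high in both libraries. The log2 difference of CD41/CD9-negative from CD48dim was 1.31 ± 0.71, where edgeR's adjusted p was 0.348. Ccne2, cyclin E2, was at 12.8 and 50.3 CPM in CD48dim, below and above the range of 31.9 to 46.2 in the others. It shares 17.4% of its exonic bases with Ints8. Uhrf1, which guides maintenance methylation to new strands, was at 142 in both CD48dim libraries and 145 to 202 elsewhere.

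Against CD48dim, the median log2 difference over the 46 members was 0.80 for CD34bright (-0.07 over all tested genes), 0.77 for CD48bright (-0.03) and 0.59 for CD41/CD9-negative (-0.06). These 3 comparisons share the CD48dim libraries and are not independent. In CD34bright the difference was positive for 41 of 46 members, against 47% of all genes. In CD48bright it was positive for 42, against 48.2%. In CD41/CD9-negative it was positive for 38, against 47.4%. The test called 0 members in CD34bright (0.577% of all genes) and 0 in CD48bright (0.387%). At an unadjusted p under 0.05 there were 16 members higher and 1 lower in CD34bright, where 8.26% of all genes were higher at that level. In CD48bright the same counts were 15 and 0, where 6.85% of genes were higher, and in CD41/CD9-negative they were 12 and 2, where 9.3% were higher. DESeq2 called 10, 7 and 9 members in CD34bright, CD48bright and CD41/CD9-negative, where it called 9.56%, 5.88% and 11.7% of all genes, and limma-voom called 0, 0 and 1. With the replicate block edgeR called 6, 2 and 5, where it called 5.18%, 1.35% and 7.32% of all genes. Those counts are 13%, 4.35% and 10.9% of the members. Without CD48dim replicate 1 the counts were 25, 24 and 20 members, where 28.4%, 23.3% and 23.9% of all genes were called and the remaining CD48dim library was assumed to vary like the others. Without CD48dim replicate 2 they were 3, 0 and 5, where 4.84%, 2.92% and 10.4% were called.

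**Figure D4:**
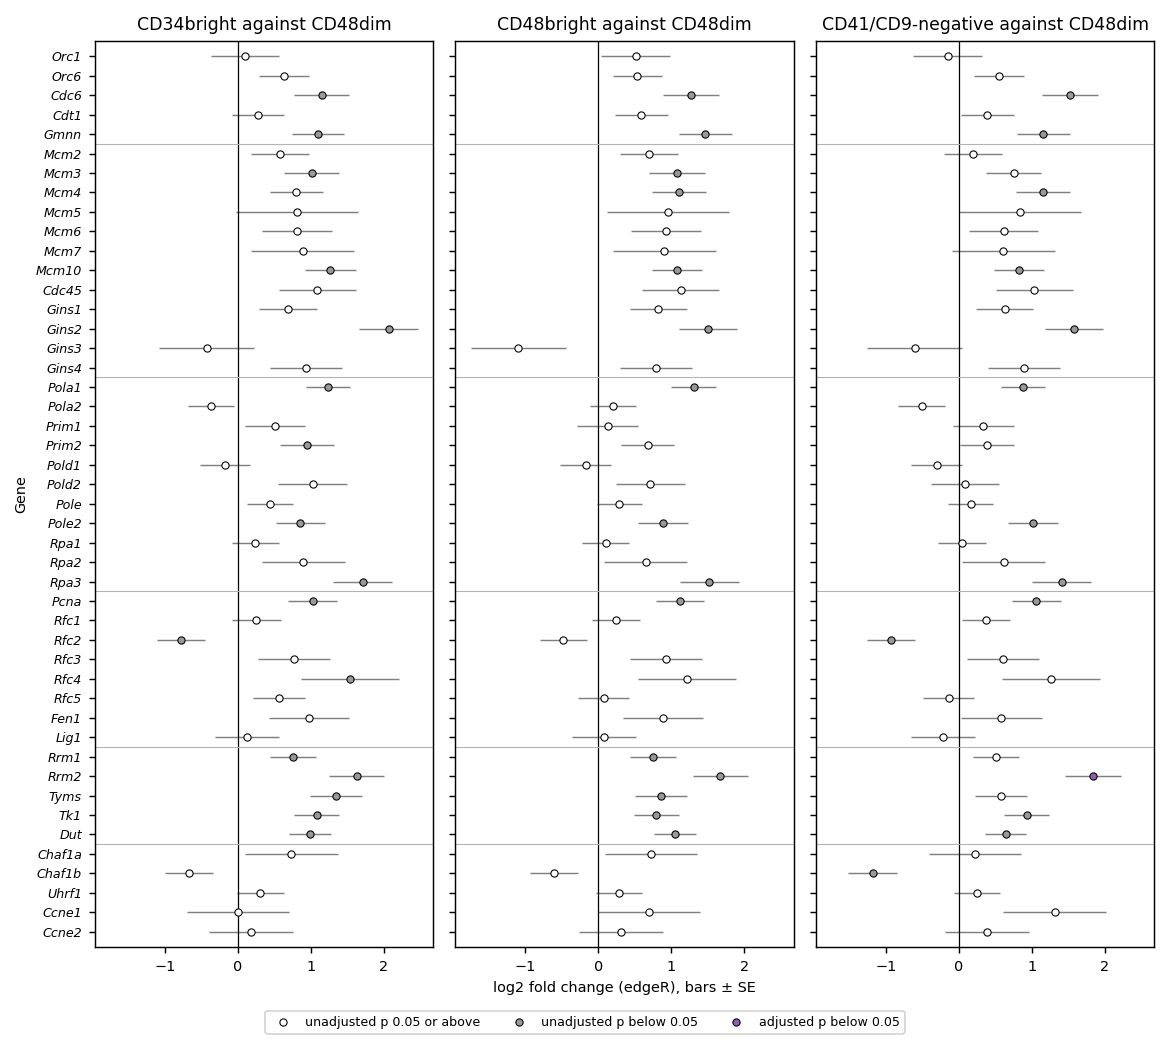
The log2 fold change from CD48dim (edgeR, bars are ± SE) of each of the 46 members, by panel, with grey points at an unadjusted p below 0.05 and the coloured point at an adjusted p below 0.05. Most points lie right of 0, and Rrm2 in the right panel is the 1 coloured point.

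Among CD34bright, CD48bright and CD41/CD9-negative, 0 members were called in any of the 3 pairs by edgeR, with 0 at an unadjusted p under 0.05 (1.99%, 7.12% and 9.91% of all genes in the order below), and DESeq2 and limma-voom also called 0. Of all genes, edgeR called 0% between CD34bright and CD48bright, 0.212% between CD41/CD9-negative and CD48bright, and 0.842% between CD41/CD9-negative and CD34bright. The median log2 difference over the members was -0.01 for CD34bright against CD48bright, with members from -0.68 to 0.67. It was -0.16 for CD41/CD9-negative against CD48bright and -0.19 against CD34bright, with members from -0.71 to 0.63 and from -0.94 to 1.31. With a median standard error of 0.37 on the log2 scale, differences of this size were not detectable with 2 libraries each. One member, Ccne1, was over 2-fold apart in any of these pairs.

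The 2 CD48dim libraries differed from each other more than those of the other populations did. They were over 2-fold apart for 17 of 46 members, or 37.0%, against 47.7% of all genes, so the spread was not particular to the members. CD34bright had 0 such members against 9.08% of all genes, CD48bright 2 against 18.5% and CD41/CD9-negative 0 against 15.4%. The helicase genes held 7 of the 17, with their summed level at 1485 CPM in replicate 1 and 621 in replicate 2. The summed level of nucleotide supply was 418 and 414, so the 5 genes of that role summed to nearly the same level in both libraries. Members with nearly equal CPM in both CD48dim libraries included Pcna, Dut, Rpa3, Prim2, Tk1, Rrm1 and Uhrf1. This closeness held in CPM only. On the TPM scale each of them was lower in replicate 1, with Pcna at 332 in replicate 1 and 496 in replicate 2, and Dut at 91.0 and 139.

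Other genes of the pathway were taken from lists outside the 46. Of 13 other licensing and firing factors, 17 other fork genes and 25 other nucleotide supply genes, 0 were called by edgeR in any comparison with CD48dim, and both CD48dim libraries lay below the other 6 for 3, 6 and 7 of them, where 11.6% of all genes had this order. The same was so for 7 of 19 S phase control genes and 13 of 18 mitosis genes. Top2a, which untangles replicated DNA, was at 375 and 365 CPM in CD48dim, with log2 differences of 1.79 ± 0.33 in CD34bright (edgeR adjusted p = 0.053) and 1.37 ± 0.33 in CD41/CD9-negative (0.0503). Dbf4, the partner of the origin-firing kinase Cdc7, was at 38.1 and 20.9 CPM in CD48dim and 63.8 to 80.2 elsewhere. Of 19 S phase control genes, 1 was called in CD34bright and 2 in CD41/CD9-negative, all higher than in CD48dim. Ccna2, cyclin A2, was at 345 and 389 CPM in CD34bright, 219 and 323 in CD48bright, 250.2 and 303 in CD41/CD9-negative, against 95.4 and 69.0 in CD48dim. It was higher by a log2 value of 2.16 ± 0.35 in CD34bright (edgeR adjusted p = 0.0374) and 1.75 ± 0.34 in CD41/CD9-negative (0.0264). Cdkn1a, the cell cycle inhibitor p21, was also higher in CD41/CD9-negative, by 3.26 ± 0.55 (edgeR adjusted p = 0.0147), at 101 and 33.7 CPM against 6.46 and 7.7. Of 18 mitosis genes, 5 were called in CD34bright (Cdk1, Ccnb1, Ccnb2, Aurkb and Ube2c, by log2 values of 1.75 to 2.54), 0 in CD48bright and Ccnb1 alone in CD41/CD9-negative, by 1.41. The median log2 difference of the mitosis genes from CD48dim was 1.69, 1.03 and 1.05 in CD34bright, CD48bright and CD41/CD9-negative. Their sum was 1953 CPM in CD48dim replicate 1 and 4157 in replicate 2, the reverse of the order seen for the helicase genes. In the other 6 libraries the sum was 3427 to 5822 CPM, so CD48dim replicate 2 lay inside that range and replicate 1 below it.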

How the data were processed

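RNA-seq was made from sorted bone marrow cells, with amplification from 5 ng of RNA per the labels' protocols, which also say that the libraries carry no strand. The deposited gene tables hold RSEM's expected counts, TPM and effective lengths, per the file headers. The submitters' processing notes name mm10, RSEM 1.3.2, STAR 2.7.2a and edgeR 3.30.3, without settings or annotation release. A second deposited table per library repeats the expected counts of 9918 genes, all 46 members among them, with a largest difference of 0.

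Samples were grouped by the sort gates of the labels, since the cluster numbers in titles and design text differ. Expected counts were rounded (those of the members were all whole), filtered with filterByExpr of edgeR 4.0.16 by population (13177 genes, all 46 members) and scaled by TMM. One quasi-likelihood model with a mean per population was fitted to all 8 libraries (4 residual and 5.46 prior degrees of freedom, biological coefficient of variation 49.8%) and tested for any difference and for the 6 pairs, two-sided, with Benjamini-Hochberg adjustment over all tested genes at 0.05. The SE of a log2 difference is its size over the square root of F. R 4.3.3, limma 3.58.1 and DESeq2 1.42.0 gave alternatives, and the fit was tested on simulated data. Same-numbered libraries deviated together in all 6 pairs of populations (correlation across genes 0.112 to 0.222), so the replicate block, which pairs them by the number in the titles, is given where it changes a call. The labels do not say what the number stands for.

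The members and lists were chosen with earlier results of these data known. Per-library values are given for the 2 members with the smallest p in the test of the 4 populations in each role (3 for helicase and polymerase). Other members are named by their order or spread, chosen after their values were seen. Gene positions and overlapping genes come from RefSeq, as do the promoters (GRCm38.p6), and the shared exonic bases come from GENCODE vM21 (GRCm38). The settings tried were RLE size factors, no scaling, no filter, DESeq2, limma-voom, the replicate block, each pair alone and leaving out each of the 8 libraries. The members had 31 counts or more in each library, and the share of counting error in the spread was not separated from that of the libraries.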

Additional observations from a re-analysis of the deposited data

How the results depend on the processing

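The number of members called against CD48dim depended on the fit, while 0 members were called among CD34bright, CD48bright and CD41/CD9-negative under every setting run. In the test for any difference among the 4 populations the count of 0 became 7 with DESeq2, 2 with no filter on low counts and 2 with the replicate block, and with 1 library left out in turn it ranged from 0 to 15. For CD48bright it became 7 with DESeq2, 3 with no filter and 2 with the replicate block, with a range of 0 to 24. For CD34bright it became 10, 6 and 6 in the same settings, with a range of 0 to 25. For CD41/CD9-negative the count of 1 became 9, 3 and 5, then 0 in the fit of the 2 populations alone, with a range of 0 to 20. Each highest count was the one without CD48dim replicate 1. RLE size factors, no scaling and limma-voom left these counts at 0, 0, 0 and 1. In the test for any difference, DESeq2, no filter and the block called 15.2%, 4.35% and 4.35% of members. They called 12.9%, 8.69% and 5.8% of all genes, so the last 2 shares of members were below those of all genes. With no filter, 13%, 6.52% and 6.52% of members were called in CD34bright, CD48bright and CD41/CD9-negative, against 5.51%, 3.18% and 6.44% of all genes. The count of members with both CD48dim libraries below the other 6 ranged from 22 to 35 with 1 library left out, an alternative chosen after seeing the data that can only keep or raise it, and the share of all genes rose from 11.6% to as much as 34.9%. The replicate block changed no other call than those given beside the genes. The cause of these changes was not tested.

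The median log2 difference from CD48dim ranged from 0.60 to 1.09 in CD34bright, 0.45 to 1.10 in CD48bright and 0.42 to 0.79 in CD41/CD9-negative with 1 library left out. With no scaling factor it was 0.63 in CD34bright, where the median of all genes moved from -0.07 to -0.22, and the all-gene median of CD34bright against CD48bright moved from -0.01 to -0.13. Of the named members, only Ccne1 changed sign in a comparison with CD48dim under any setting, in 4 cases. The median SE of the members' log2 differences from CD48dim was 0.38 in each comparison, and with 2 libraries a population differences well under it could not be resolved. Differences far above it also missed the adjusted test, as Gins2 did at 2.07 ± 0.40 in CD34bright (edgeR adjusted p = 0.0575).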

Other observations

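Some genes beside the 46 lay above the others in CD48dim, chosen here after their values were seen. Rnaseh2a, a subunit of the enzyme that removes ribonucleotides from DNA, was at 69.7 and 66.2 CPM in CD48dim and 14.9 to 42.7 elsewhere. Its log2 difference was -1.54 ± 0.48 for CD41/CD9-negative against CD48dim, where edgeR's adjusted p was 0.123. Rrm2b, the ribonucleotide reductase subunit that serves cells outside S phase, was at 32.3 and 96.9 CPM in CD48dim, against 15.0 to 34.9 in the others, so the lower CD48dim library lay inside their range. Its log2 difference was -1.62 ± 0.57 for CD48bright against CD48dim, with an edgeR adjusted p of 0.258. E2f1, a transcription factor that drives many of the 46 genes, overlapped between populations, at 34.1 and 25.6 CPM in CD48dim and 23.5 to 52.6 elsewhere. Cdk2, the kinase partner of cyclins E and A, was at 76.5 and 115 CPM in CD48dim and 71.8 to 98.5 elsewhere.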
